A study of Mus musculus with 388 samples.

Results

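The genes described here store, carry and release iron or break down haem: Fth1, Ftl1, Ncoa4, Trf, Tfrc, Slc11a2, Slc40a1 and Hmox1, 8 of the 25000 gene rows of one single-cell expression table, found by their symbols. They were measured in single mouse bone marrow stromal cells, each of which is 1 deposited sample. The cells came from C57BL/6 mice aged 2 months with the genotype KitMerCreMer; R26tdTomato, so all of them carry a tamoxifen-inducible Cre made from the Kit gene and a Cre-activated red reporter. Tamoxifen was given in embryonic life, at E12.5 and E14.5, and the cells were sorted as PDGFRα+ without CD45, Ter119 or CD31, surface proteins of blood, erythroid and endothelial cells. Tomato+ cells bear the reporter and Tomato- cells do not. The reporter marks descendants of cells that expressed Kit when tamoxifen acted, and a Tomato- cell can also be one in which Cre did not act.

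Cell titles carry 1 of 2 orders and a set name. Order 1 has 3 Tomato+ sets, P1 with 94 cells, P2 with 5 and P3 with 40, and a single Tomato- set, N2, with 60. Order 2 has the Tomato+ sets P1 and P2, with 24 cells each, and the Tomato- sets N1, with 71, and N2, with 70. The sources used here do not say what an order or a set is and name no animal, so each group is 1 sample. Cells of a group are not replicates, and no test was made. Intervals cover the counting error of reads only. Reads counted after amplification are not independent molecules, so the intervals are narrower than the counting error of molecules. Cells were kept when they showed 1000 genes and 10000 counts or more, which left out 2 cells of the Tomato+ set P3 and kept 386; these held a median of 726174 counts in Tomato+ and 637863 in Tomato- cells. Levels are CPM, counts scaled to a fixed total, of the counts summed over the cells of a group or set.

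The labels call the cells skeletal stem cells, and this stromal identity was checked against markers. All 13 markers of Lepr+ stroma, the reticular cells that support blood formation, stood at 20 CPM or more in both groups and both orders. Of 13 macrophage markers, 4 reached 20 CPM in Tomato- cells of order 2 and 1 in each other group and order, and their summed level was 55.7 CPM in Tomato+ and 73.7 CPM in Tomato- cells of order 1 and 129.3 CPM in Tomato+ and 2407 CPM in Tomato- cells of order 2. Granulocyte markers summed to 5.65 CPM in Tomato+ and 1.28 CPM in Tomato- cells of order 1, and to 94.9 CPM in Tomato+ and 21381 CPM in Tomato- cells of order 2. In Tomato- cells of order 2 the median and highest sum of a single cell were 157.9 and 371105 CPM for granulocyte markers. For macrophage markers they were 30.4 and 47572 CPM, with Lyz2 alone at 2224 CPM over the group. These group sums thus do not describe the typical cell. Erythroid markers summed to 66.4 CPM in Tomato+ and 74.3 CPM in Tomato- cells of order 1, and to 177.2 CPM in Tomato+ and 145.01 CPM in Tomato- cells of order 2, with Slc4a1 at 0 throughout. Signs of RNA quality differed between sets of order 1. Of 12 widely expressed genes such as Actb and Gapdh, fewer than 7 reached 100 CPM in 4 of 5 cells of the Tomato+ set P2, 13 of 38 of the Tomato+ set P3 and 23 of 60 of the Tomato- set N2 of order 1, against 0 cells of every other set. This count was added after the data were seen; values without these 40 cells are given where they matter. The part of other cell types in the results below was not tested.

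Cells keep iron harmless inside ferritin, a hollow shell of heavy (Fth1) and light (Ftl1) chains, and Ncoa4 delivers ferritin to lysosomes when iron is needed. Transferrin (Trf) carries iron between cells, the transferrin receptor (Tfrc) takes it in, Slc11a2 moves it out of the endosome, and ferroportin (Slc40a1) is the known exporter of iron from cells. Hmox1, haem oxygenase, frees iron from haem and is induced by haem and oxidative stress. In bone marrow this system is best known from macrophages that recycle old red cells and from the erythroblasts that they supply.

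Several of these mRNAs carry an iron-responsive element, a hairpin that iron regulatory proteins bind when iron is scarce. Bound in the 5′ UTR it blocks translation, and bound in the 3′ UTR of the transferrin receptor mRNA it protects the mRNA from decay. The hairpin pattern searched was an unpaired C, a stem of 5 bases, the loop CAGTGN and the other side of the stem, with Watson-Crick or G-T pairs, on the sense strand of GENCODE M21 transcripts (GRCm38). It was found in Fth1, Ftl1, Slc40a1 and Tfrc. The matches are shown because iron acts through this hairpin on the translation or decay of these 4 mRNAs. The 6 capitals mark the loop, and each line gives 30 bases, 5′ to 3′ on the gene's strand.
Fth1 5′ UTR (chr19:9982732-9982761, plus strand): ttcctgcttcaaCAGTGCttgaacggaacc
Ftl1 5′ UTR (chr7:45459778-45459807, minus strand): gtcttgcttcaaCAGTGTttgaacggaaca
Slc40a1 5′ UTR (chr1:45925464-45925493, minus strand): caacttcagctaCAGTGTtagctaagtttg
Tfrc 3′ UTR (chr16:32631219-32631248, plus strand): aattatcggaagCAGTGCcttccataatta
Tfrc 3′ UTR (chr16:32631598-32631627, plus strand): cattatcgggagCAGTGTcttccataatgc
Tfrc 3′ UTR (chr16:32631663-32631692, plus strand): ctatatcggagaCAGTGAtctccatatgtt
Tfrc 3′ UTR (chr16:32631710-32631739, plus strand): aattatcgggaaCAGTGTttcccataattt

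The pattern occurred in a 5′ UTR of 31 of 22500 coding genes (0.138%) and in a 3′ UTR of 0.64% of them. It was not found in Trf, Slc11a2, Hmox1 or Ncoa4, which says only that these letters are not in the transcripts searched. The table holds RNA counts, so what the hairpins do to translation is outside these data.

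Per base of mRNA, the ferritin chains and transferrin stood far above the other genes. In TPM, which corrects for mRNA length, Fth1 ran from 6557 to 8507, Ftl1 from 6601 to 8611 and Trf from 2387 to 3354 over the 2 groups and 2 orders. Their ranks among the 24685 genes with a length were 11 to 18 for Fth1, 12 to 20 for Ftl1 and 30 to 42 for Trf. Hmox1 followed with 97.1 to 587 TPM, then Ncoa4 with 45.7 to 125.8, Slc40a1 with 52.2 to 73.7, Slc11a2 with 3.95 to 15.4 and Tfrc with 0 to 14.4 TPM. The ranges of Fth1 and Ftl1, of Hmox1 and Ncoa4, of Ncoa4 and Slc40a1, and of Slc11a2 and Tfrc overlapped, so the order within these neighbours changed with group and order.

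Fth1 (chr19:9980598-9985098, plus strand), the chain with the enzyme site that oxidises iron for storage, had a count in all 386 cells. It stood at 3751, 2564 and 4325 CPM in the Tomato+ sets P1, P2 and P3 and 5099 CPM in the Tomato- set N2 of order 1. Order 2 gave 3848 and 4985 CPM in the Tomato+ sets P1 and P2 and 3998 and 4397 CPM in the Tomato- sets N1 and N2. The sets of the groups overlapped. Taken on CPM + 1, Tomato+ over Tomato-, the log2 ratios were -0.40 in order 1 and 0.09 in order 2. One Tomato- cell of order 1, with 48676 CPM of Fth1, held 12.1% of that group's Fth1 counts, and the ratio of order 1 was -0.26 without the top cell of each group. Pooled over the library codes of order 1 that hold both groups, with 83 Tomato+ and all 60 Tomato- cells, the ratio was -0.44. No ratio was taken inside a single code. In order 2 it was -0.06 between P1 and N1 and 0.18 between P2 and N2. The labels do not say that sets of the same number belong together, so such pairs only show how the ratio varied with the sets compared.

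Ftl1 (chr7:45457944-45459884, minus strand), the chain around which the iron core forms, stood at 4302, 447 and 3524 CPM in the Tomato+ sets P1, P2 and P3 and 3214 CPM in the Tomato- set N2 of order 1. Order 2 gave 3849 and 3820 CPM in the Tomato+ sets and 3235 and 3172 CPM in the Tomato- sets. The 4 Tomato+ sets of more than 5 cells all lay above the 3 Tomato- sets, as did 1.98% of the 5865 genes with 20 CPM in either group in both orders (in 2.13% all 4 lay below); with the 5-cell set P2 of order 1 the groups overlapped. The log2 ratios were 0.33 in order 1 and 0.26 in order 2, a difference of under 1.5-fold. Pooled over the library codes of order 1 that hold both groups the ratio was 0.42, and in order 2 it was 0.25 between P1 and N1 and 0.27 between P2 and N2. Without the 40 cells with few widely expressed genes, Ftl1 stood at 4236 CPM in Tomato+ and 3932 CPM in Tomato- cells of order 1, a log2 ratio of 0.11. That Tomato- value is above both Tomato+ sets of order 2, P1 at 3849 CPM and P2 at 3820 CPM, which lost no cell.

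Ftl1 split the cells of order 1 in a way that Fth1 did not. It was under 500 CPM in 0 of 94, 4 of 5 and 10 of 38 cells of the Tomato+ sets P1, P2 and P3 and in 24 of 60 cells of the Tomato- set N2 of order 1, but in 0 Tomato+ cells and 1 Tomato- cell of order 2. Of these 39 cells, 35 were among the 40 with few widely expressed genes, and 21 nevertheless had Fth1 at 1000 CPM or more. Within Tomato- cells of order 1, Ftl1 ran from 50.2 CPM through a median of 1296 to 13682 CPM, and it followed the total count of the cell (Spearman rho 0.60 over 60 cells, which are not replicates). In Tomato+ cells of order 1 the lowest, median and highest values were 31.9, 3265 and 79542 CPM, and rho with the total count was 0.46.

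Leaving out the 40 cells with few widely expressed genes moved the balance of the chains in order 1. Fth1 over Ftl1 stayed higher in Tomato- than in Tomato+ cells. Fth1 over Ftl1 per base was 0.761 in Tomato+ and 1.27 in Tomato- cells of order 1, and 0.938 in Tomato+ and 1.05 in Tomato- cells of order 2. By set it was 0.697, 4.59, 0.981, 0.799 and 1.04 in the 5 Tomato+ sets and 1.27, 0.988 and 1.11 in the 3 Tomato- sets, which overlap. Without the 40 cells it was 0.742 in Tomato+ and 0.940 in Tomato- cells of order 1. The Tomato- value thus passed from more Fth1 to more Ftl1 per base. Fth1 exceeded Ftl1 in CPM in 57.7% of Tomato+ cells and 51 of 60 Tomato- cells of order 1, and in 54.2% of Tomato+ and 67.4% of Tomato- cells of order 2. Without the 40 cells the shares of order 1 were 55.8% of Tomato+ and 75.7% of Tomato- cells. Together the chains held 0.791% of all counts in Tomato+ and 0.831% in Tomato- cells of order 1, and 0.833% in Tomato+ and 0.742% in Tomato- cells of order 2.

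**Figure D1:**
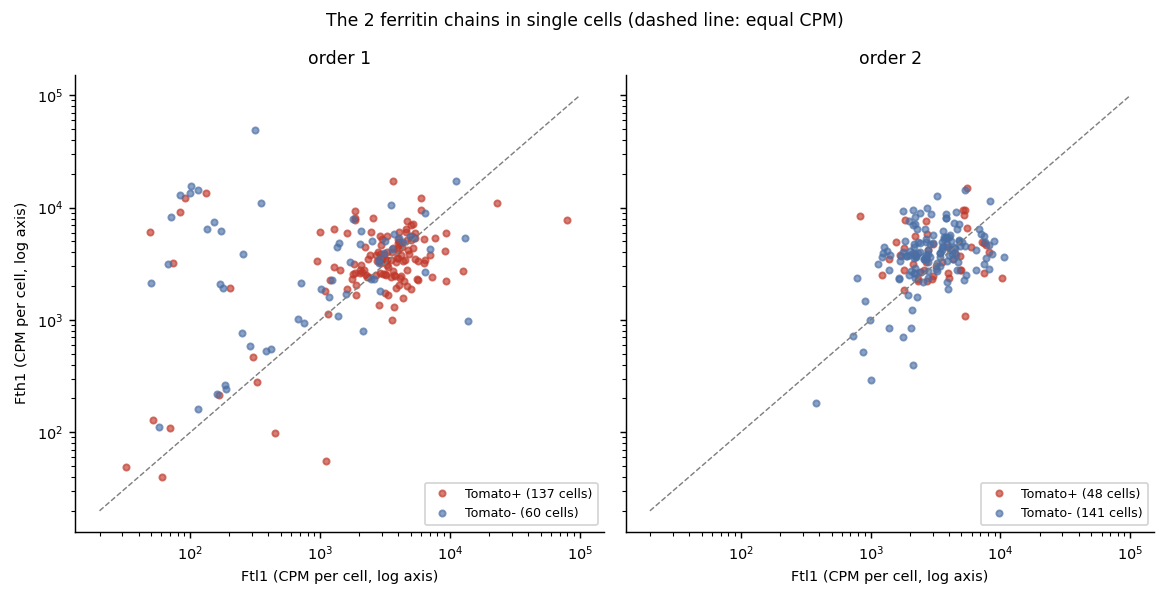
Each point is 1 cell, with its Ftl1 level on the x axis and its Fth1 level on the y axis, both in CPM on log axes; red is Tomato+ and blue Tomato-, and the dashed line marks equal CPM. In order 1 a separate cloud to the left holds cells with Ftl1 under 500 CPM, 14 of them Tomato+ and 24 Tomato-; order 2 has 1 such cell.

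Ftl1 counts were not whole numbers in 346 of 386 cells, against 1 of 386 for Fth1 and 100 of 386 for Trf, and expected counts can divide a read among features that it matches. The row LOC100862446, which the annotation tables used here do not name, had the values most like Ftl1 of 3375 genes (mean rho 0.89 over the 2 groups and 2 orders, 386 cells). It held 83.04 CPM in Tomato+ and 63.5 CPM in Tomato- cells of order 1, and 68.6 CPM in Tomato+ and 59.8 CPM in Tomato- cells of order 2, which is 1.79% to 2.05% of the Ftl1 counts. Whether the rows share reads was not tested.

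Ncoa4 (chr14:32159865-32179855, plus strand), the receptor that takes ferritin to lysosomes, changed direction between orders. It stood at 100.1, 4.13 and 29.9 CPM in the Tomato+ sets P1, P2 and P3 and 231 CPM in the Tomato- set N2 of order 1. Order 2 gave 129.1 and 151.05 CPM in the Tomato+ sets P1 and P2 and 66.8 and 146.6 CPM in the Tomato- sets N1 and N2. All 3 Tomato+ sets of order 1 lay below their Tomato- set, while those of order 2 overlapped. The log2 ratios were -1.48 and 0.35. The Tomato- level of order 1 rested on few cells: 3 of 60 were at 1000 CPM or more, and 1 of them, at 10496 CPM with a total of 155209 counts and 53 counts of Lepr, is the same cell that held the highest Fth1 value. Without the top cell of each group the ratio of order 1 was -1.34. Pooled over the library codes of order 1 that hold both groups it was -1.19, and in order 2 it was 0.94 between P1 and N1 and 0.04 between P2 and N2.

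The median cell gives another picture of Ncoa4. It had 2.01 CPM in Tomato+ and 4.44 CPM in Tomato- cells of order 1, and 76.1 CPM in Tomato+ and 4.21 CPM in Tomato- cells of order 2. Ncoa4 reached 100 CPM in 19.7% of Tomato+ and 16.7% of Tomato- cells of order 1, and in 43.8% of Tomato+ and 33.3% of Tomato- cells of order 2. Its counts were not whole in 78 of the 270 cells with a count.

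**Figure D2:**
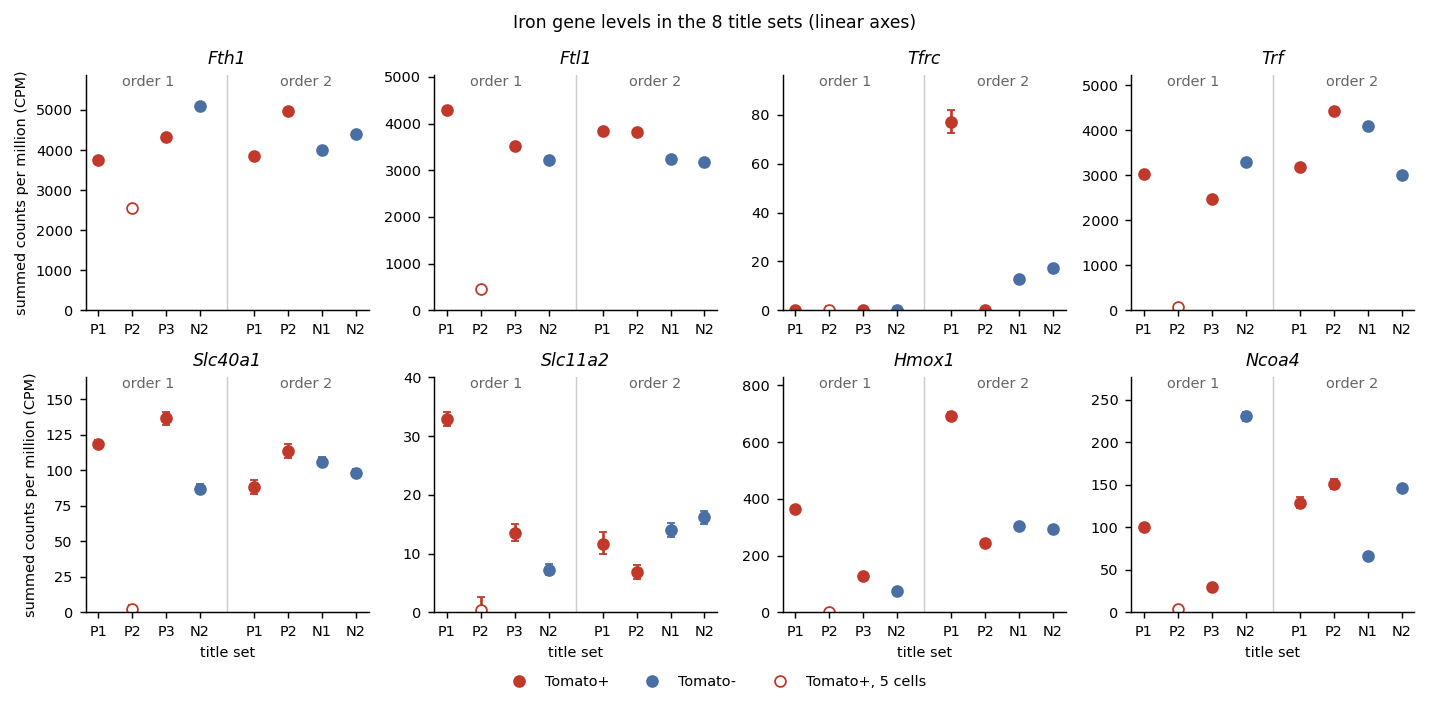
CPM of the summed counts of each gene (y axes, linear) in the 8 title sets (x axes), with order 1 left and order 2 right of the grey line and Tomato+ sets (red) left of Tomato- sets (blue) in each; bars are 95% Poisson intervals, and the open symbol is the 5-cell set. Tfrc is near 0 in every set of order 1 and in the Tomato+ set P2 of order 2, and Ncoa4 is highest in the Tomato- set of order 1, at 231 CPM.

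Trf (chr9:103204001-103230444, minus strand) encodes transferrin, known mainly as a plasma protein from liver. It had a count in all 386 cells, but single cells fell into high and low ranges. It reached 1000 CPM in 40.1% of Tomato+ cells and 18 of 60 Tomato- cells of order 1, and in 68.8% of Tomato+ and 64.5% of Tomato- cells of order 2. The lowest, median and highest cell had 2.21, 155.8 and 23709 CPM in Tomato+ and 14.5, 154.5 and 29459 CPM in Tomato- cells of order 1. In order 2 these were 15.8, 3775 and 13209 CPM in Tomato+ and 9.43, 3619 and 16487 CPM in Tomato- cells. The medians thus differed more between orders than between groups.

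Summed by set, Trf stood at 3030, 68.9 and 2479 CPM in the Tomato+ sets P1, P2 and P3 and 3295 CPM in the Tomato- set N2 of order 1. Order 2 gave 3188 and 4426 CPM in the Tomato+ sets and 4091 and 2998 CPM in the Tomato- sets. The groups overlapped, and the log2 ratios were -0.21 in order 1 and 0.16 in order 2, where P1 over N1 gave -0.36 and P2 over N2 gave 0.56. One Tomato- cell held 22.1% of the counts of its group in order 1. Without the top cell of each group Trf stood at 2698 CPM in Tomato+ and 2633 CPM in Tomato- cells of order 1, and the ratio of order 1 turned to 0.04. Counts under 1% of the highest count of a gene in the same library code (order 1) or title set (order 2) were also set to 0. Trf then remained in 233 of 386 cells.

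Tfrc (chr16:32608920-32632794, plus strand), the receptor that binds transferrin at the cell surface, was all but absent in order 1. It had 6 counts in the Tomato+ cells, 0.0538 CPM (95% interval 0.0198 to 0.117), and 0 in the 60 Tomato- cells, where a count of 0 allows up to 0.0912 CPM. In order 2 it stood at 33.2 CPM (31.2 to 35.3) in Tomato+ and 15.4 CPM (14.6 to 16.2) in Tomato- cells. The Tomato+ level came from 1 set: P1 held 77.2 CPM and P2 0.113 CPM, against 13.002 and 17.3 CPM in the Tomato- sets N1 and N2. The log2 ratio was 2.48 for P1 over N1 and -4.04 for P2 over N2. One Tomato+ cell at 720 CPM held 46.1% of that group's counts.

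Tfrc reached 5 counts in 6 of 48 Tomato+ cells (exact 95% interval of the share 4.73% to 25.2%) and 12.1% of Tomato- cells (7.18% to 18.6%) of order 2, and in 0 cells of order 1. Such a gap between orders was rare among genes at or above the order 2 level of Tfrc. Of 6114 genes with at least 15.4 CPM in both groups of order 2, only Tfrc and Ngp, a granulocyte gene, had 6 or fewer counts in order 1. Both bounds are the values of Tfrc itself, so Tfrc meets them by construction. The 6114 genes include all those at higher levels. The headers of the order 1 columns name a counting tool and those of order 2 do not, so order and processing cannot be told apart for this gene.

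Slc11a2 (chr15:100387898-100425072, minus strand), the transporter that passes iron out of the endosome, was low. It stood at 27.8 CPM (26.9 to 28.8) in Tomato+ and 7.27 CPM (6.38 to 8.25) in Tomato- cells of order 1, and at 8.91 CPM (7.89 to 10.02) in Tomato+ and 15.2 CPM (14.4 to 16.02) in Tomato- cells of order 2. The log2 ratios pointed in opposite directions, 1.80 in order 1 and -0.71 in order 2, where P1 over N1 gave -0.24 and P2 over N2 gave -1.14. In order 1 a single cell held 51.6% of the counts of the Tomato+ group and another 56.1% of those of the Tomato- group. Without the top cell of each group the ratios were 1.79 in order 1 and -1.29 in order 2. In order 1, 10.9% of Tomato+ and 6.67% of Tomato- cells had 5 counts or more; in order 2 it was 10.4% of Tomato+ and 15.6% of Tomato- cells.

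Slc40a1 (chr1:45908068-45926523, minus strand), ferroportin, reached 100 CPM in a minority of cells of both groups. It stood at 118.8, 2.30 and 136.6 CPM in the Tomato+ sets P1, P2 and P3 and 86.98 CPM in the Tomato- set N2 of order 1. Order 2 gave 88.2 and 113.9 CPM in the Tomato+ sets and 106.3 and 98.5 CPM in the Tomato- sets. The sets overlapped, with log2 ratios of 0.47 in order 1 and 0.01 in order 2, where P1 over N1 gave -0.27 and P2 over N2 gave 0.21. The median cell had 1.77 CPM in Tomato+ and 2.60 CPM in Tomato- cells of order 1, and 2.29 CPM in Tomato+ and 3.82 CPM in Tomato- cells of order 2. Slc40a1 reached 100 CPM in 24.8% of Tomato+ and 11.7% of Tomato- cells of order 1, and in 33.3% of Tomato+ and 37.6% of Tomato- cells of order 2.

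Since ferroportin is best known in bone marrow from macrophages, the 110 cells with Slc40a1 at 100 CPM or more were looked at for other markers. Lepr reached 100 CPM in all but 4 of them. At least 5 counts were found for Csf1r in 7, for C1qa in 1 and for Ptprc in 7 of the 110. At least 5 counts of 2 or more of the 13 macrophage markers were found in 29 of the 110 and in 28 of the other 276 cells. The share was larger among the cells with Slc40a1, but these counts pool groups and orders, whose macrophage marker levels differed. The part of macrophage markers in the Slc40a1 levels was not tested. The highest Tomato+ cell of order 1, at 1719 CPM, was a shallow cell of 18031 counts that also held the highest Fth1 value of its group, 7 counts of C1qa and 27 of Lepr.

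Hmox1 (chr8:75093621-75100589, plus strand), the haem-degrading enzyme, had the largest mean log2 ratio of the 8 genes, 1.27, but its sets overlapped. It stood at 365, 1.38 and 128.997 CPM in the Tomato+ sets P1, P2 and P3 and 75.4 CPM in the Tomato- set N2 of order 1. Order 2 gave 692 and 243 CPM in the Tomato+ sets P1 and P2 and 306 and 293 CPM in the Tomato- sets N1 and N2. In order 1 the 5-cell set lay below the Tomato- set and the other Tomato+ sets above it, and in order 2 the Tomato- sets lay between the Tomato+ sets. The summed levels were 304 CPM (301 to 307) in Tomato+ and 75.4 CPM (72.5 to 78.5) in Tomato- cells of order 1, 3.99-fold on the CPM + 1 scale, and 436 CPM (428 to 443) in Tomato+ and 299 CPM (295 to 302) in Tomato- cells of order 2, 1.46-fold.

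The size of the Hmox1 difference hung on few cells and on the set. In Tomato- cells of order 1 a single cell at 2674 CPM held 70.2% of the counts; without the top cell of each group the levels were 280 CPM in Tomato+ and 22.96 CPM in Tomato- cells of order 1, and 312 CPM in Tomato+ and 254 CPM in Tomato- cells of order 2. Within order 2, the log2 ratio was 1.17 between the sets P1 and N1 and -0.27 between P2 and N2. Among the library codes of order 1 that hold both groups it was 2.37, from 83 Tomato+ and 60 Tomato- cells. The median cell of order 1 went the other way, with 4.63 CPM in Tomato+ and 6.12 CPM in Tomato- cells. So did the share with any count, 79.6% of Tomato+ and 86.7% of Tomato- cells. Stricter thresholds did not: at least 5 counts were found in 40.1% of Tomato+ and 23.3% of Tomato- cells of order 1. With counts under 1% of the highest in the same library code set to 0, Hmox1 remained in 38.7% of Tomato+ and 8.33% of Tomato- cells of order 1. In order 2 the median was 119.3 CPM in Tomato+ and 43.6 CPM in Tomato- cells. Hmox1 reached 100 CPM in 29.2% of Tomato+ and 6.67% of Tomato- cells of order 1, and in 54.2% of Tomato+ and 41.1% of Tomato- cells of order 2.

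Hmox1 is also high in macrophages, so markers were counted in the 66 Tomato+ and 62 Tomato- cells with 100 CPM or more of it. Lepr reached 100 CPM in all but 1 of them. At least 5 counts were found for Csf1r in 3, for C1qa in 0 and for Ptprc in 1. At least 5 counts of 2 or more of the 13 macrophage markers were found in 20 of these cells and in 37 of the other 258 cells. These counts also pool groups and orders.

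**Figure D3:**
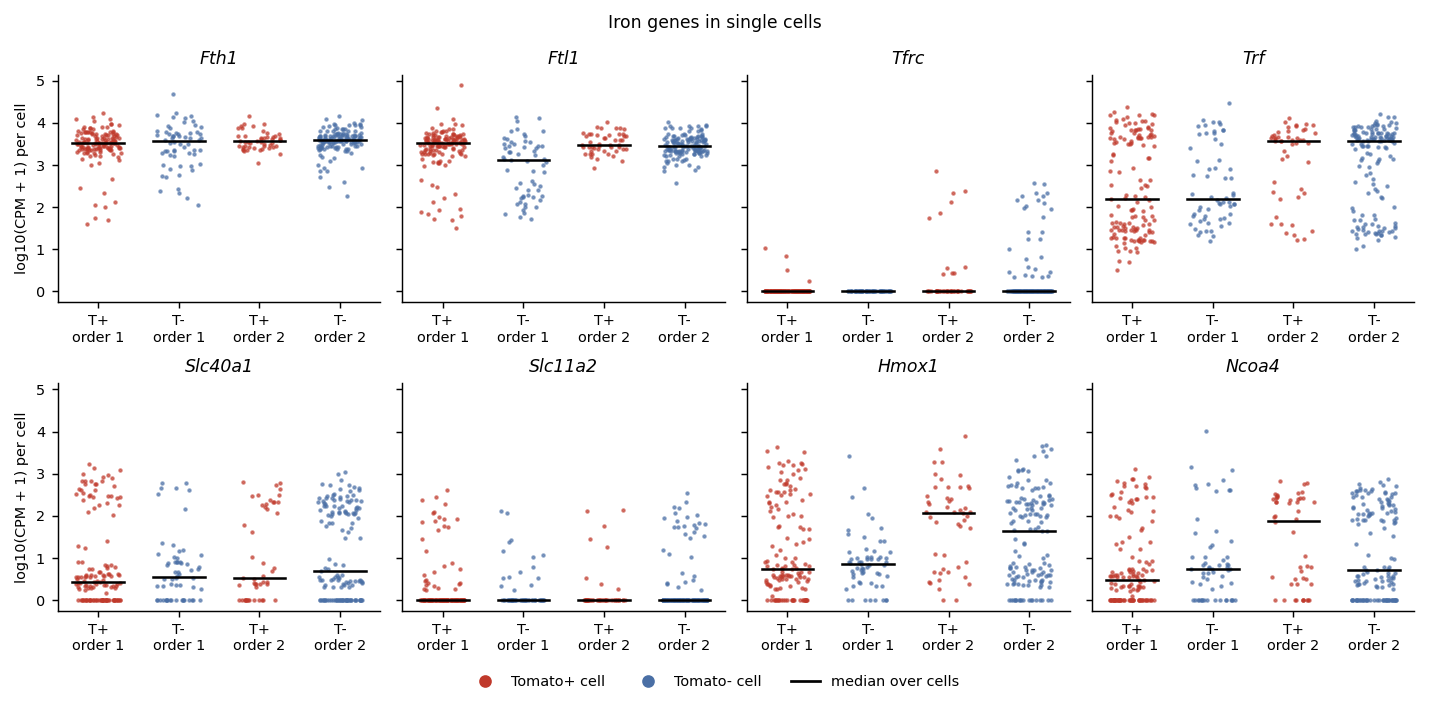
Level of each gene in single cells as log10(CPM + 1) on the y axis, by group and order on the x axis (T+ Tomato+, red; T- Tomato-, blue); each point is 1 kept cell and the black line is the median over cells. Fth1 and Ftl1 lie mostly above 1000 CPM, apart from the low Ftl1 cells of order 1. Trf has a high and a low range, and Slc40a1, Hmox1 and Ncoa4 have many cells under 10 CPM and a second band around 100 CPM and above.

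Slc40a1, Hmox1 and Ncoa4 did not mark the same cells. Of 386 cells, 37.6% had none of them at 100 CPM and 11 cells had all 3. Hmox1 and Slc40a1 were both at 100 CPM in 45 cells, 40.9% of the 110 with Slc40a1 and 35.2% of those with Hmox1. Slc40a1 and Ncoa4 met in 37 cells, 33.6% of those with Slc40a1 and 35.2% of those with Ncoa4. Hmox1 and Ncoa4 met in 31 cells, 24.2% of those with Hmox1 and 29.5% of those with Ncoa4. Of all cells, 28.5% reached 100 CPM of Slc40a1, 33.2% of Hmox1 and 27.2% of Ncoa4. Across cells within a group and order, the Spearman rho of 21 pairs without Tfrc lay within 0.2 of 0 in 72 of 84 values. Fth1 and Ftl1 had the highest mean, 0.24, from 0.28 in Tomato+ and 0.15 in Tomato- cells of order 1 and 0.14 in Tomato+ and 0.37 in Tomato- cells of order 2. The lowest single value, -0.53 for Hmox1 and Ncoa4 over 48 Tomato+ cells of order 2, did not recur in the other 3 blocks of cells, where it lay between -0.10 and 0.07. Cells of a block are not replicates, and these values describe them only.

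Genes whose level per cell was most like that of a member were sought among the 3375 genes with a count in at least 50% of cells. Apart from the row LOC100862446, the highest mean rho was 0.37. Trf was nearest to Agt (mean rho 0.29), Apoe (0.28) and Serpina3n (0.28), which encode secreted proteins. Hmox1 was nearest to Rnf19a (0.29), Angptl4 (0.25) and Nfkbiz (0.25). Slc40a1 was nearest to Olfml3 (0.24), Cxcl12 (0.24) and Cnn2 (0.23), and Fth1 to Ifitm3 (0.27), Ndufb2 (0.25) and Ftl1 (0.24). Ftl1 came next to Dynll1 (0.37, from 0.22 to 0.57 over the 2 groups and 2 orders) and Fcgrt (0.35, from -0.04 to 0.79). Slc11a2 was nearest to Dpep1 (0.24), Ndfip2 (0.22) and Extl3 (0.21), Ncoa4 to Ik (0.23), Nrbp1 (0.22) and Pdlim2 (0.22), and Tfrc to Ube2v2 (0.21), Uvrag (0.20) and H2afz (0.19).

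Set against a common bar, none of the 8 genes passed. A gene counted as higher or lower when it differed by more than 1.5-fold in the same direction in both orders, provided that the higher group reached 20 CPM and had counts in 20% or more of its cells. Of the 5865 genes with 20 CPM in either group in both orders, 2.66% were higher and 3.61% lower in Tomato+ cells by this rule. Of the 8 genes, 6 could be judged, as Tfrc missed 20 CPM in order 1 and Slc11a2 in order 2, and 0 were higher and 0 lower. In order 1 alone 7 of the 8 reached 20 CPM and 3 of them differed by over 1.5-fold, Hmox1 and Slc11a2 upwards and Ncoa4 downwards, beside 55.6% of the 7224 genes at 20 CPM in that order. In order 2 alone 7 reached 20 CPM and 1, Tfrc, differed by over 1.5-fold, upwards, beside 26.7% of 6723 genes. Hmox1 missed the bar in order 2 with a log2 ratio of 0.54 against the 0.58 that 1.5-fold requires, and it passed in 6 of 23 alternative ways of processing, among them the one without the Tomato+ set P2 of order 2.

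**Figure D4:**
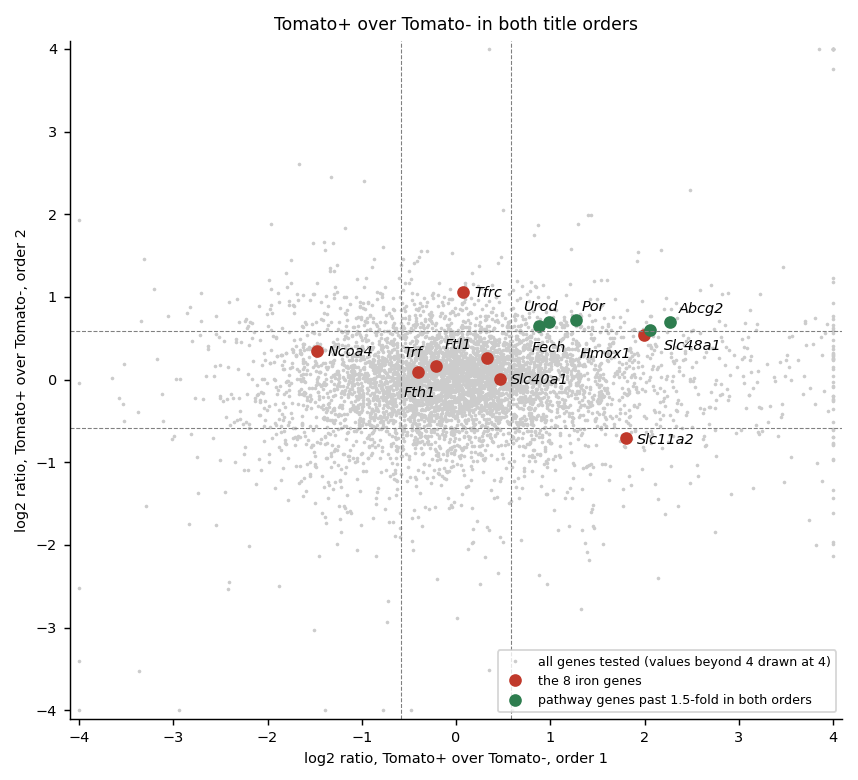
Log2 ratio of Tomato+ over Tomato- cells in order 1 (x axis) and order 2 (y axis); grey points are the 5865 genes judged, red the 8 iron genes and green the 5 pathway genes past 1.5-fold (dashed lines) in both orders. Tfrc and Slc11a2 are drawn although they missed 20 CPM in 1 order; Ncoa4, Slc11a2, Fth1 and Trf lie on opposite sides of 0 in the 2 orders.

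The wider pathway was described with 9 lists of 75 genes found in the table, of which 42 could be judged. Of these, 5 were higher and 0 lower in Tomato+ cells in both orders, beside 2.66% and 3.61% of all genes. The lists were chosen with earlier results of these data known, so the counts only describe them. The median log2 ratio of the 42 was 0.36 in order 1 and 0.13 in order 2, against 0.03 and -0.0014 over all genes judged. All 5 belong to haem handling: 2 of 7 judged genes of haem synthesis and 3 of 7 of haem breakdown and transport, and 0 in the other lists. These calls did not hold throughout. Of 23 alternatives, Por passed in 20, Fech in 18, Urod and Abcg2 in 17 each and Slc48a1 in 14, and in 10 of the alternatives some gene outside these 5 passed. Without the top cell of each gene, Slc48a1 and Abcg2 no longer passed, while Bmp2 passed upwards and Acsl4, of the list of ferritinophagy and lipid peroxide defence, downwards. Without the Tomato+ set P1 of order 2, Por and Slc48a1 no longer passed, and Lrp1 (upwards) and Acsl4 (downwards) did.

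In haem synthesis, Urod, which makes coproporphyrinogen, stood at 52.6 CPM in Tomato+ and 26.1 CPM in Tomato- cells of order 1, and at 46.8 CPM in Tomato+ and 28.5 CPM in Tomato- cells of order 2. Fech, which inserts iron into the ring, stood at 73.1 CPM in Tomato+ and 39.4 CPM in Tomato- cells of order 1, and at 81.4 CPM in Tomato+ and 51.7 CPM in Tomato- cells of order 2. Tmem14c, a mitochondrial porphyrin carrier, did not pass, with log2 ratios of 0.36 in order 1 and -0.07 in order 2. Alas2, the erythroid enzyme that begins haem synthesis, was at 0 counts in Tomato- cells of both orders and in Tomato+ cells of order 2. Alas1, also of this list, changed direction between orders. It stood at 26.1 CPM in Tomato+ and 4.29 CPM in Tomato- cells of order 1, a log2 ratio of 2.36. In order 2 it stood at 17.3 CPM in Tomato+ and 51.9 CPM in Tomato- cells, a log2 ratio of -1.53.

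Por, the reductase that passes electrons to haem oxygenase and cytochrome P450 enzymes, stood at 72.6 CPM in Tomato+ and 29.5 CPM in Tomato- cells of order 1, and at 122.98 CPM in Tomato+ and 74.4 CPM in Tomato- cells of order 2. Abcg2, a porphyrin and drug exporter, stood at 137.3 CPM in Tomato+ and 27.6 CPM in Tomato- cells of order 1, and at 121.98 CPM in Tomato+ and 74.8 CPM in Tomato- cells of order 2. Slc48a1, which moves haem out of lysosomes, stood at 41.7 CPM in Tomato+ and 9.25 CPM in Tomato- cells of order 1, and at 57.3 CPM in Tomato+ and 37.6 CPM in Tomato- cells of order 2. Pgrmc1, a haem-binding membrane protein, did not pass, with log2 ratios of 0.41 and 0.13. The 10 endothelial markers summed to 260 CPM in Tomato+ and 58.7 CPM in Tomato- cells of order 1 and 258 CPM in Tomato+ and 26.8 CPM in Tomato- cells of order 2. In Tomato+ cells the median and highest sum of a single cell were 0 and 12293 CPM in order 1. In order 2 they were 1.43 and 13392 CPM, so the group sums do not describe the typical cell. Flt1 was lower in Tomato+ cells of order 1, at 8.78 CPM against 11.1 CPM. Tek was at 0 in Tomato- cells of order 2, and no other endothelial marker was at 0. Without the cells that held 5 counts of Ptprc or Pecam1, Urod and Slc48a1 still passed, and Fech, Por and Abcg2 did not. Por alone of the 5 passed among the library codes of order 1 that hold both groups and in both pairs of same-numbered sets of order 2.

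No gene of the other lists passed in both orders. Among uptake genes, Hp, haptoglobin, which binds free haemoglobin, stood at 8000 CPM in Tomato+ and 4370.5 CPM in Tomato- cells of order 1, and at 4731 CPM in Tomato+ and 3833 CPM in Tomato- cells of order 2. Steap4, an iron reductase, had log2 ratios of 0.41 and 0.11. Of the oxidases that load iron onto transferrin, Cp stood at 1487 CPM in Tomato+ and 1592 CPM in Tomato- cells of order 1 and 1567 CPM in Tomato+ and 1428 CPM in Tomato- cells of order 2, and Heph had log2 ratios of 0.18 and 0.35. The iron chaperone Pcbp1 had log2 ratios of 1.39 in order 1 and -0.33 in order 2, and Pcbp2 1.09 and 0.09.

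In the lists of sensing, mitochondria and stress, Bmp6, a signal that raises hepcidin in liver, had log2 ratios of -0.21 and -0.03, and Hfe, a partner of the transferrin receptor, 0.19 and 0.25. Iscu, the scaffold of iron-sulfur cluster assembly, had 0.10 and 0.13, and Cisd2 0.72 and -0.44. Nfe2l2, the factor that turns on Hmox1 and ferritin genes, had 0.35 in order 1 and 0.14 in order 2, and Txnrd1, one of its targets, 0.85 and -0.11. Gpx4, which removes lipid peroxides, had 0.24 and -0.07, and Tax1bp1, an autophagy receptor that works with Ncoa4, -0.07 and -0.19.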

How the data were processed

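The authors deposited 1 table of expected counts, estimates of which 4.91% of those above 0 were not whole, with RSEM named in the order 1 file headers. Per the submitters' processing notes, the build was GRCm38 and the tools HTSeq 0.6.0, StringTie 1.3.3b and HISAT, with no roles given; no strand setting is stated. Per the labels' protocols, RNA was amplified as a whole, without mention of molecular identifiers. Counts were rounded and scaled as CPM of group sums within each order; 0 table columns went unused. Intervals are 95% exact Poisson or Clopper-Pearson, and a count of 0 allows 3 counts. TPM used GENCODE M21 mRNA lengths. No doublet caller was run. Named pathway genes were up to 2 of each list with the highest levels and those past 1.5-fold. Alas1 and Alas2 were named in addition. Members and lists were chosen with earlier results of these data known. Alternatives changed scaling (edgeR 4.0.16 TMM, DESeq2 1.42.0 size factors), pseudocount, filters, depth and the cells or sets included. The ratio step was tested on simulated data.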

Additional observations from a re-analysis of the deposited data

Results flagged for a closer look

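Among the 5 Tomato+ title sets, Ftl1 stood far below the others in the 5-cell set P2 of order 1, at 447 CPM, where 4 of 5 cells also had few widely expressed genes. Tfrc stood far above the others in the set P1 of order 2, at 77.2 CPM. For 5 normal values of equal precision, the rule flags a gap by chance in about 1 in 20 groups. These sets hold 5 to 94 cells, so that rate need not apply, and 8 genes were looked at. For Ncoa4, every Tomato+ set lay below the Tomato- level of its order in order 1 and above it in order 2. Its log2 ratio was 1.82 higher in order 2 than in order 1, and this difference was not tested.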

How the results depend on the processing

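The number of the 8 genes past 1.5-fold in both orders was 0, and 1 with DESeq2 size factors, TMM factors, the mean of per-cell CPM, thinning to 150000 counts or without cells with 2 or more markers of other types, each time Hmox1 (the last leaves 10 Tomato- cells of order 2). It was 1, Slc11a2, with cells summed over both orders, and ran from 0 to 1 when 1 title set was left out (Hmox1 without the Tomato+ set P2 of order 2, Tfrc where order 2 alone was left). For pathway genes the number was 5, and 2 with a pseudocount of 10 CPM, 10 with no filter on low genes and 13 with cells summed over both orders. It was 2 without cells with Ptprc or Pecam1 and 3 after thinning. It was 1 (Por) over the pooled shared library codes of order 1 and pairs of same-numbered sets of order 2, which the labels do not call batches. It was 3 to 17 when 1 title set was left out, the lowest without the Tomato- set N2 of order 2 and the highest where order 2 alone was left. Leaving out cells with few widely expressed genes, chosen after seeing the data, gave 0 and 6. The causes were not tested. The mean of per-cell CPM put the median log2 ratio of all genes at 0.15, leaving out top cells and thinning at 0.12, against 0.01. The log2 ratio, averaged over orders, kept its sign under all 23 alternatives for Hmox1 (0.47 to 1.92) and Ftl1 (0.14 to 0.52), and under 22 for Fth1, Slc40a1 and Ncoa4, 21 for Slc11a2, 20 for Tfrc and 16 for Trf. Without the Tomato+ set P1 of order 2 the ratio of Tfrc was -1.90, against 0.57.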
